A study of Mus musculus with 4 samples.

Results

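The loop of Henle anlage of the fetal mouse kidney was represented by 3 of the 4 arrays of the series, one group with no treatment or mutant arm. All 3 arrays carried RNA from wild-type mice of the CD-1 stock at embryonic day E15.5 (Theiler stage 23), with the sex recorded as unknown. Each array stood for 1 pool of about 50 frozen sections taken from 5 kidneys, from which the anlage had been cut by laser capture. How the anlage was recognised in the sections, and whether the pools shared kidneys or litters, is not given in the sources used here. The question put to these arrays was which genes gave the highest signal, what those genes do, and how far the 3 pools differed in each of them. With 1 group there is no comparison of conditions and no p-value, and the differences below are between pools of one structure.

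The anlage is the young nephron segment that grows down from the cortex and later forms the thick ascending limb. There the cotransporter encoded by Slc12a1 takes up sodium, potassium and chloride from the tubule fluid, the channel encoded by Kcnj1 returns potassium to it, and the claudin encoded by Cldn10 forms part of the paracellular path for sodium. Umod encodes uromodulin, the main protein secreted by the segment, while Sim2 and Irx2 encode transcription factors of the developing nephron. Beside such segment genes, every growing embryonic tissue carries large amounts of mRNA for ribosomes, respiration and protein folding, and these housekeeping groups usually fill the top of an expression profile.

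Values are given as log2(signal + 109.11) after the 3 arrays were put on 1 common distribution, so a difference of 1 is a change of 2-fold on that scale, and folds of dim genes are understated. The range of a gene is its highest minus its lowest array, and a gene with a range over 1 is called variable. Of 18193 genes with a probe set of their own, 12758 had a mean of at least 8.40, the 40th percentile of all probe sets, and the other 5435 were left out as dim. The 200 genes with the highest means are called bright genes. Probe sets bind with different strength, so the order of genes is an order of signal and not of transcript number.

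All 6 anlage markers lay above the limit for dim genes on average, at ranks from 475 for Sim2 to 5218 for Cldn10. Umod read 14.53, 11.65 and 14.48 in arrays 1, 2 and 3, so arrays 1 and 3 lay within 0.05 of each other and array 2 lay 7.15-fold below array 3. Slc12a1 read 15.02, 13.27 and 14.64, Kcnj1 13.92, 11.23 and 13.36, and Sim2 15.40, 13.10 and 15.10. The same order held for Irx2, at 12.83, 11.02 and 12.01, and for Cldn10, at 12.11, 10.13 and 11.45. All 6 markers were thus highest in array 1 and lowest in array 2 in their brightest probe sets, and arrays 1 and 3 differed by at most 0.83 in any of them. The second probe sets of Umod, Kcnj1 and Sim2 had the same order, at 13.40, 10.80 and 13.37 for Umod. That of Slc12a1 was much dimmer and flat, at 9.15, 9.13 and 9.19, and Irx2 and Cldn10 had no second one. Of all genes past the filter, 26.6% were highest in array 1 and 25.7% were lowest in array 2. None of the 6 was bright, and all 6 were variable beside 42.9% of all genes past the filter (5477 of 12758). When the arrays were scaled to a common median, array 2 stayed lowest for all 6, but array 1 was highest for 2 of them and 4 of 6 had a range over 1. On that scale Slc12a1 differed little, at 14.17, 14.11 and 14.67. In a bulk pool, fewer anlage cells and less of these transcripts per cell cannot be told apart.

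The arrays also differed in the control probes, most between arrays 1 and 2. The ratio of 3' to 5' signal, which rises as transcripts are shortened, was 10.3, 54.1 and 26 for Gapdh in arrays 1, 2 and 3, 3.06, 6.41 and 5.42 for Actb, and 1.42, 3.28 and 1.55 for Tfrc. Array 2 was highest in all 3, but array 3 lay nearer to array 2 for Actb and nearer to array 1 for Tfrc. The median signal in the deposited values was 526.5, 206.9 and 344.1, and the 4 spiked-in bacterial controls were each brightest in array 1 and dimmest in array 2. The 3' control probe set for 18S ribosomal RNA had the same order with a wide spread, at 197000, 16600 and 110000 in the deposited values. Over the 12758 genes the log2 values correlated at r = 0.822 for arrays 1 and 2, 0.889 for arrays 1 and 3 and 0.919 for arrays 2 and 3, lowest for the pairs with array 1, as a description over genes that are not independent and share their library. No pair shared more than 1 identical deposited value. The part of transcript shortening or scaling in the results below was not tested. Many of those that rest on array 2 are given with the values of all 3 arrays or with the other scaling, but not all.

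Genes that build and feed the ribosome gave the highest signals of the anlage. Eef1a1, the elongation factor that delivers aminoacyl-tRNA, came first at 17.20, 17.15 and 17.27, a mean of 17.21 ± 0.06 (SD, n = 3). Hspa8, the constitutive cytosolic chaperone of the Hsp70 family, read 17.05, 17.20 and 17.06, and Tpt1, the translationally controlled tumour protein, 17.09, 17.06 and 17.03. In all 3 genes the arrays lay within 0.16 of each other. The ribosomal proteins Rpl7, Rpl13a, Rps7, Rps18, Rps28 and Rps29 followed at means between 16.75 and 16.90, and Rpl22, Rpl6, Rps20 and Rps2 also stood among the first 20. The nucleoside diphosphate kinase Nme2 held rank 5 although array 1 stood apart, at 16.08 against 17.24 and 17.31. It was the only gene of the first 20 with a range over 1.

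The rest of the first 20 came from several roles. Tsc22d1, a leucine zipper protein of the TGF-beta response, read 16.39, 16.98 and 16.62. Uqcrb, a subunit of respiratory complex III, read 16.26, 16.97 and 16.72, so both genes were lowest in array 1 and highest in array 2. Xist, the long RNA that silences an X chromosome in female cells, read 16.84, 16.62 and 16.28, and was therefore bright in every pool. The RNA-binding protein Serbp1, the helicase cofactor Eif4h and the ubiquitin ligase Nedd4 closed the set, with means of 16.56, 16.50 and 16.49.

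**Figure D1:**
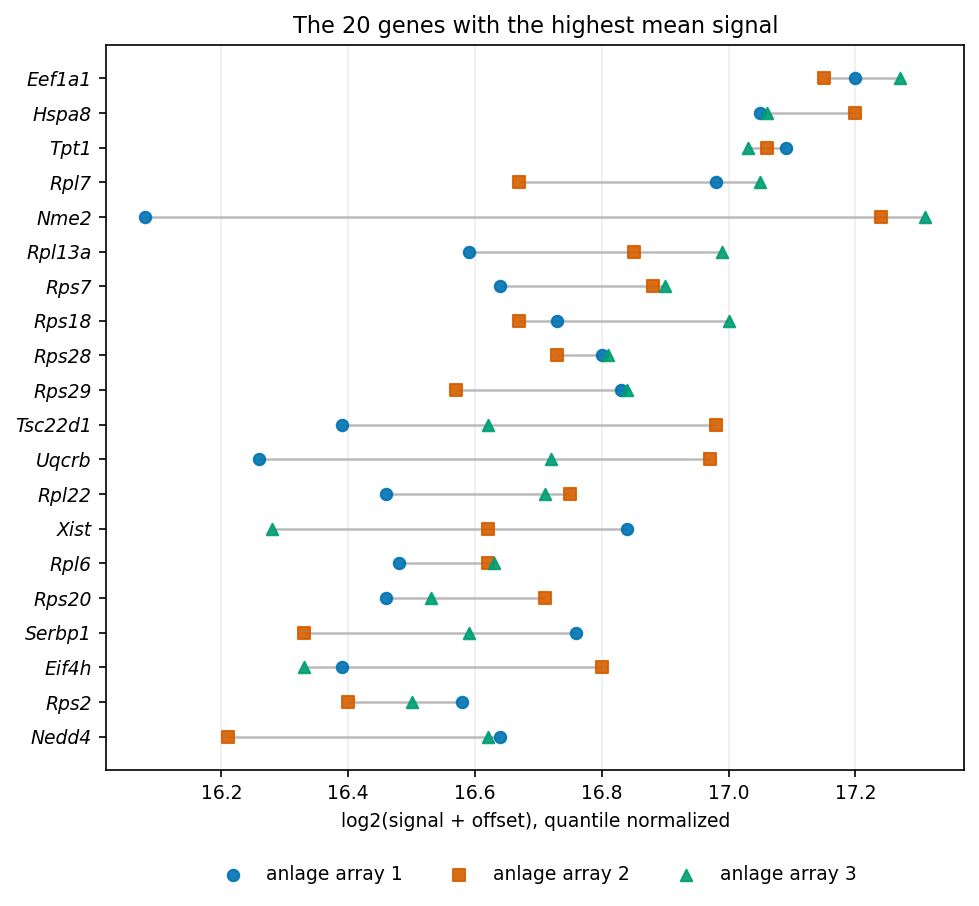
Log2 signal of the 20 genes with the highest mean, in rank order from the top, with 1 point per anlage array and a grey line over the range. Eef1a1, Hspa8 and Tpt1 lie close together at the top, while array 1 lies far left of the other two for Nme2 (16.08 against 17.24 and 17.31).

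The 200 bright genes spanned means from 15.29 to 17.21. The border was not a gap: Cox4i1 and Ywhaz, at ranks 199 and 200, had means of 15.294 and 15.293, and Norad and Psma5, the next ones outside, had 15.291 and 15.289. Of the 200, 111 were in the top 200 of all 3 arrays taken singly, and 156, 154 and 178 were in that of arrays 1, 2 and 3. Choosing another probe set changed the set more than any scaling did. When a gene was read as the mean over its probe sets, 85 of the 200 were still bright, and with only probe sets of the unique or single-gene types (names ending in _at or _a_at) 128 were. Of the bright genes, 27.5% stood on a probe set ending in _x_at, whose probes can bind other transcripts, against 4.79% of all genes past the filter.

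Cytosolic ribosomal proteins were the largest class, with 28 of 200 bright genes (14%) against 0.329% of the genes past the filter, and 66.7% of the 42 members past the filter were bright. Of the 28, 13 stood on a probe set ending in _x_at or _s_at. With only probe sets ending in _at or _a_at the class made up 10.5% of the bright genes. Respiratory chain and ATP synthase subunits gave 14 bright genes (7%, against 0.674% of the genes past the filter). The ATP synthase subunits Atp5g3 and Atp5c1 came next after Uqcrb. RNA-binding and splicing proteins gave 12 (6%, against 1.11%), among them Hnrnpab and the helicase Ddx17. Translation factors, chaperones, cytoskeletal proteins, and small GTPases with kinases and adaptors gave 10 each (5%). In that order these classes made up 0.423%, 0.799%, 0.752% and 1.47% of the genes past the filter. Of their members past the filter, 18.5%, 9.8%, 10.4% and 5.35% were bright. The chaperones were led by Hspa8, the chaperonin subunit Cct3 and the endoplasmic reticulum chaperones Canx and Hspa5. The cytoskeletal class was led by the alpha-tubulin Tuba1a and the actin-sequestering thymosin Tmsb10.

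The other classes held fewer genes each. Chromatin proteins gave 8 bright genes, with the nucleosome-binding Hmgn1 first, and cell cycle genes gave 5, with Cks1b, Ccnd1, Cdc20, the helicase subunit Mcm7 and the ribonucleotide reductase subunit Rrm2. Adhesion genes gave 6, led by beta-catenin (Ctnnb1), the surface protein Cd24a and alpha-catenin (Ctnna1), with the gap junction protein Gja1 among them. Membrane traffic gave 6, ubiquitin and proteasome genes 4 and transport 4, with the sodium pump subunit Atp1b1 at 15.95, 15.52 and 15.91. Extracellular matrix gave 2, the collagen Col3a1 and the laminin chain Lamb1, and imprinted genes gave 2, Peg3 and Grb10. Glycolysis gave 2, Pgk1 and Ldhb, and the lysosome class gave 1, Laptm4b. Of all genes past the filter 1.57% were bright. Membrane traffic with 6 of 224, ubiquitin and proteasome with 4 of 142, matrix with 2 of 84 and transport with 4 of 404 lay near that share. The share was 8.51% for chromatin, 5.71% for adhesion, 4.03% for cell cycle and 13.3% for imprinted genes (2 of 15). It was 16.7% for glycolysis (2 of 12) and 4.55% for the lysosome class (1 of 22). Of the 26 nephron patterning transcription factors past the filter 0 were bright, and Sim2 was the brightest of them. In the remaining 66 bright genes, which fell in no class of the lists, a grouping by hand after the ranking found 18 genes of RNA processing and decay, 13 metabolic enzymes and 9 secreted, signalling or membrane proteins. The metabolic enzymes included Hmgcs1, of the mevalonate pathway, and the aldehyde reductase Akr1a1.

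Ribosomal protein mRNAs and Eef1a1 are known for a start made of pyrimidines (C and T), through which their translation follows growth signals, so the bases around the annotated start of the leading members are shown. The windows run 5' to 3' on the transcript's strand from 15 bases before the start to 15 bases from it on, come from RefSeq on build GRCm38.p6, and have in capitals a run of 8 or more letters that are all C or T on that strand. They begin with 5 starts that hold such a run, then 3 that do not, the last being the segment gene Umod.
Eef1a1, chr9:78481710-78481739, minus strand: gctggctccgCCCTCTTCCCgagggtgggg
Rpl13a, chr7:45128731-45128760, minus strand: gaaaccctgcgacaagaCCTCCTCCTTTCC
Rps18, chr17:33955651-33955680, minus strand: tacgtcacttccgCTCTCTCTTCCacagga
Rpl35, chr2:39005117-39005146, minus strand: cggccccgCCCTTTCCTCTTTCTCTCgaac
Rplp2, chr7:141447636-141447665, plus strand: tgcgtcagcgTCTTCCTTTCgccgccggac
Rps28, chr17:33824548-33824577, minus strand: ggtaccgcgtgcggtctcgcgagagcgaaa
Rpl6, chr5:121204486-121204515, plus strand: tggtcacctcccgtcattgcttatagaccg
Umod, chr7:119479248-119479277, minus strand: cacagaaacaatctcagagggcagaagcag
The runs were 18 bases long in Rpl35, 13 in Rpl13a, 11 in Rps18 and 10 in both Rplp2 and Eef1a1. The longest run was 4 bases in Rps28, 6 in Rpl6 and 4 in Umod.

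RefSeq entries were found for 23 of the 28 bright ribosomal protein genes, with 26 annotated starts. Of these starts, 10 held a run of 8 or more (38.5%), against 3 of 12 for bright translation factors (25%), 12.9% for the other bright genes, 12.4% for all genes past the filter and 12% of all 32851 entries. The promoter motif GGGCGG, searched on both strands over the 300 bases around each start, stood in 57.7% of the ribosomal starts, in 69.9% of those of other bright genes and in 60.4% of those of genes past the filter. CCAAT, searched likewise, stood in 26.9% of the ribosomal starts, 52.1% of the other bright ones and 37.1% of those past the filter. A window without a run or motif shows only that these letters are not in it, and a start annotated a few bases away would move them.

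After quantile normalization the bright genes had narrower ranges than all genes past the filter, a difference that turned round with a common median. The median range was 0.41 for the 200 bright genes (quartiles 0.26 and 0.66) and 0.31 for the first 20, against 0.88 for all genes past the filter (quartiles 0.52 and 1.40). A range over 1 was found for 26 bright genes (13%), against 42.9% of all genes past the filter, and a range under 0.25 for 47 bright genes (23.5%) against 7.03% of all. With all genes past the filter split by mean into 10 equal parts, the percentage with a range over 1 lay between 38.6 and 49.2 in the lower 9 and was 28.3 in the highest. Genes had been chosen by the mean of the same 3 values, so these figures describe them and carry no test. With the arrays scaled to a common median, which left the bright genes at medians of 14.91, 16.45 and 15.87 in arrays 1, 2 and 3, 163 of 200 bright genes had a range over 1 (81.5%), against 68.1% of the genes past the filter. The median range was then 1.52 for bright genes and 1.45 for all. The ranges that follow are those after quantile normalization unless said otherwise.

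**Figure D2:**
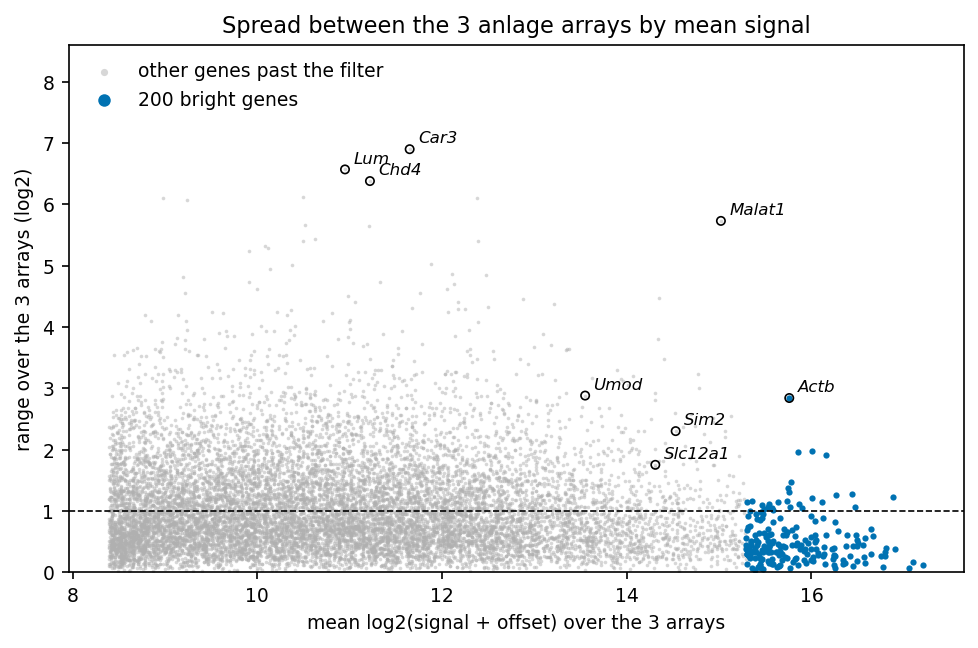
Range over the 3 anlage arrays against the mean log2 signal for the 12758 genes past the filter, with the 200 bright genes in blue and the dashed line at a range of 1. Most bright genes lie under the line (26 of 200 above it), Actb is the highest of them at 2.84, and Malat1, just outside the set, lies at 5.73.

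The 10 steadiest bright genes had ranges from 0.03 to 0.09. Rpl8, a protein of the large ribosomal subunit, read 15.41, 15.37 and 15.40, the narrowest range of the set at 0.03. Api5, an inhibitor of apoptosis, followed with a range of 0.05 around a mean of 15.48, then the ribosomal stalk protein Rplp2 and the chromosomal passenger Cdca8, both with a range of 0.06. Tpt1, the ataxin-7-like Atxn7l3b and the splicing factor Srsf3 had ranges of 0.07, Eif3f and Rps28 of 0.08, and the ATP synthase subunit Atp5a1 of 0.09. For several of them a dimmer probe set of the same gene was less steady. The next probe set of Api5 read 13.83, 14.27 and 14.04, that of Cdca8 read 13.88, 14.77 and 14.43, and the third of Atxn7l3b read 13.34, 8.96 and 11.70. This steadiness also changed with the scaling. With a common median the 10 genes had ranges from 0.57 for Tpt1 to 1.60 for Srsf3, with 1.52 for Rpl8 and 1.58 for Api5, and each was highest in array 2 and lowest in array 1.

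By class, the 28 bright ribosomal proteins had a median range of 0.27 and the 14 respiratory subunits of 0.42, and 0 genes of either class were variable. Over all 42 ribosomal proteins past the filter the median range was 0.32 and 3 were variable (7.14%). These were the dimmer members Rps6, at 11.56, 13.37 and 12.94, Rpl14, at 11.27, 12.77 and 12.60, and Rps27, at 9.53, 9.04 and 10.11. Rps6 and Rpl14 were lowest in array 1, and Rps27 lowest in array 2. The 86 respiratory subunits past the filter had a median range of 0.64, with 18 variable (20.9%), the widest being Sdhd, a membrane anchor of complex II, with a range of 2.51 and array 2 lowest. At the other end among the bright genes, 4 of 8 chromatin genes were variable, with a median range of 0.99. Over all 94 chromatin genes past the filter 43 were variable (45.7%) and the median range was 0.95. These figures lay near those of all genes past the filter, 42.9% and 0.88. Hmgn1 read 15.76, 17.05 and 16.51, the nucleolar chaperone Npm1 15.07, 16.13 and 15.41, the histone variant H2az1 14.66, 15.81 and 15.42, and the remodelling subunit Smarcd2 14.86, 15.74 and 15.88. All 4 were lowest in array 1, as were 100 of the 200 bright genes and 53.3% of all genes past the filter.

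**Figure D3:**
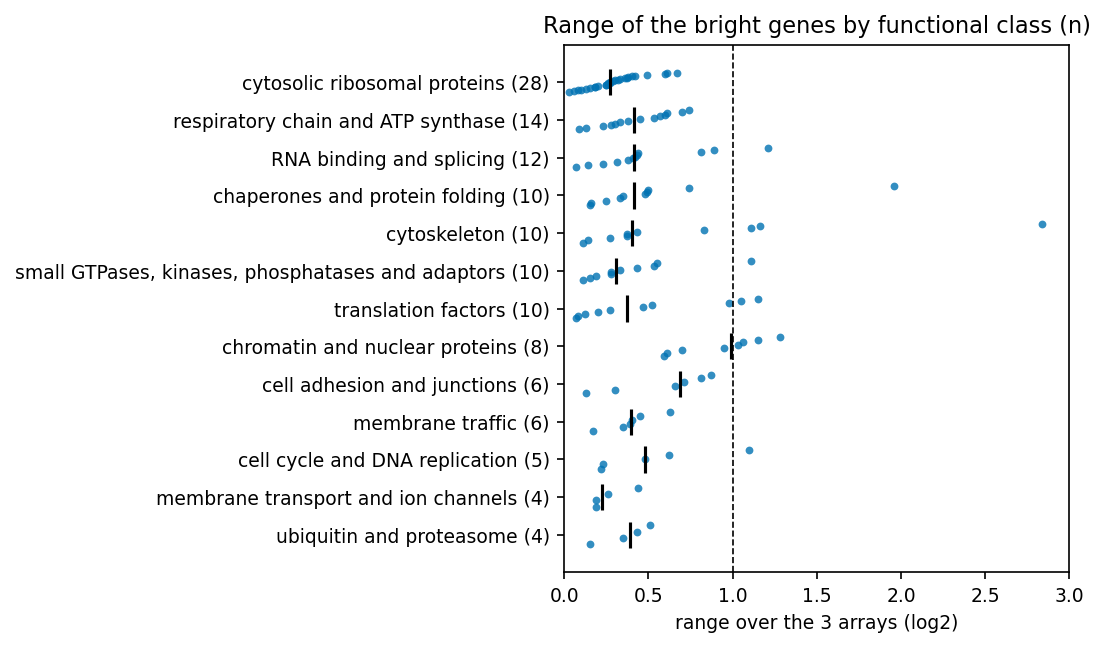
Range over the 3 arrays of each bright gene, by functional class for classes with at least 4 bright genes (number in brackets), with a black bar at the class median and a dashed line at 1. The ribosomal and respiratory genes all lie below the line, and the chromatin genes have a median of 0.99.

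Among all genes past the filter, whose median range was 0.88 with 42.9% variable, matrix and imprinted genes had the widest class medians. Extracellular matrix and basement membrane genes had a median range of 1.42, with 56 of 84 variable (66.7%). Of the 84, 45 were highest in array 3, beside 27.1% of all genes past the filter. Imprinted genes had a median of 1.17, with 10 of 15 variable, among them the long RNA Rian at 13.39, 8.89 and 10.66 and the growth inhibitor Cdkn1c at 15.96, 14.22 and 14.66. The 2 bright ones were steady, Peg3 with a range of 0.11 and Grb10 of 0.42. Cytoskeletal genes followed at 1.03, with 49 of 96 variable (51%), and nephron patterning transcription factors at 1.01, with 14 of 26 variable (53.8%), both nearer to the figures for all genes. Pou3f3, which acts in the distal nephron, read 14.64, 14.01 and 14.29, and Mecom 14.21, 14.37 and 14.37, while the widest members were Wt1, Tfap2a, Eya1 and Sim2, with ranges of 2.72, 2.45, 2.35 and 2.30. The mean over the 84 matrix genes, 11.05, 11.39 and 11.94, was highest in array 3 under each of the 4 scalings run, though with a common median arrays 2 and 3 stood at 11.88 and 11.89.

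Of the 26 variable bright genes, 11 were highest in array 1, 10 in array 2 and 5 in array 3, and array 3 lay between the others in 20. Among all 5477 variable genes past the filter, 1424, 2860 and 1193 were highest in arrays 1, 2 and 3. Array 3 lay between the others in 64.7% of these, so its middle place was the general pattern. Actb, the cytoplasmic beta-actin, was the widest, at 16.99, 14.14 and 16.15, a 7.18-fold range. Its other probe set, 15.39, 14.63 and 15.01, had the same order with a range of 0.76. The paralog gamma-actin, Actg1, read 16.11, 15.74 and 15.94, a range of 0.37. Pabpn1, the nuclear poly(A)-binding protein, read 16.88, 14.91 and 16.25, and a dimmer probe set of it turned the other way, at 11.53, 13.94 and 12.66. Canx, calnexin, read 16.69, 14.73 and 16.12, while its next probe set lay within 0.47, at 14.77, 15.24 and 14.95. In the brightest probe sets of these 3 genes array 2 was thus lowest, and 1 probe set of Pabpn1 and 2 of Canx did not have that order.

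Itm2b, a small membrane protein, read 17.03, 15.12 and 16.32, and the mitochondrial enzyme Glud1 16.43, 14.96 and 15.96. The Polycomb subunit Suz12 read 16.35, 15.05 and 15.89, and the cytoplasmic poly(A)-binding protein Pabpc1 16.74, 15.59 and 16.02. These genes, the splicing factor Srsf6, the corepressor Ctbp1, the tropomyosin Tpm3 and Tceal9 shared the order of Actb, highest in array 1 and lowest in array 2, in their brightest probe sets. Dimmer probe sets often had another order: 1 of 3 for Srsf6, 1 of 4 for Suz12 and 0 of 2 for Tpm3 had the same highest array. Over the 26 variable bright genes, 24 of 46 further probe sets past the filter had the same highest array as the brightest one and 26 of 46 the same lowest. The order of Actb is also the order of the anlage markers, and array 2 had the highest Gapdh 3' to 5' ratio. The opposite order, lowest in array 1 and highest in array 2, held among others for Hmgn1, Npm1 and H2az1, for the nucleotide hydrolase Hint1 at 15.56, 16.81 and 16.42, and for Rrm2 at 14.89, 15.99 and 15.52. Scaled to a common median, 16 of the 26 kept a range over 1, 16 kept their highest array and 18 their lowest. Actb, Pabpn1, Canx and Itm2b kept both, with ranges of 1.63, 0.77, 0.65 and 0.82, so that Actb alone of these 4 stayed over 1. Suz12, Srsf6 and Pabpc1 were then within 0.23 over the 3 arrays.

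**Figure D4:**
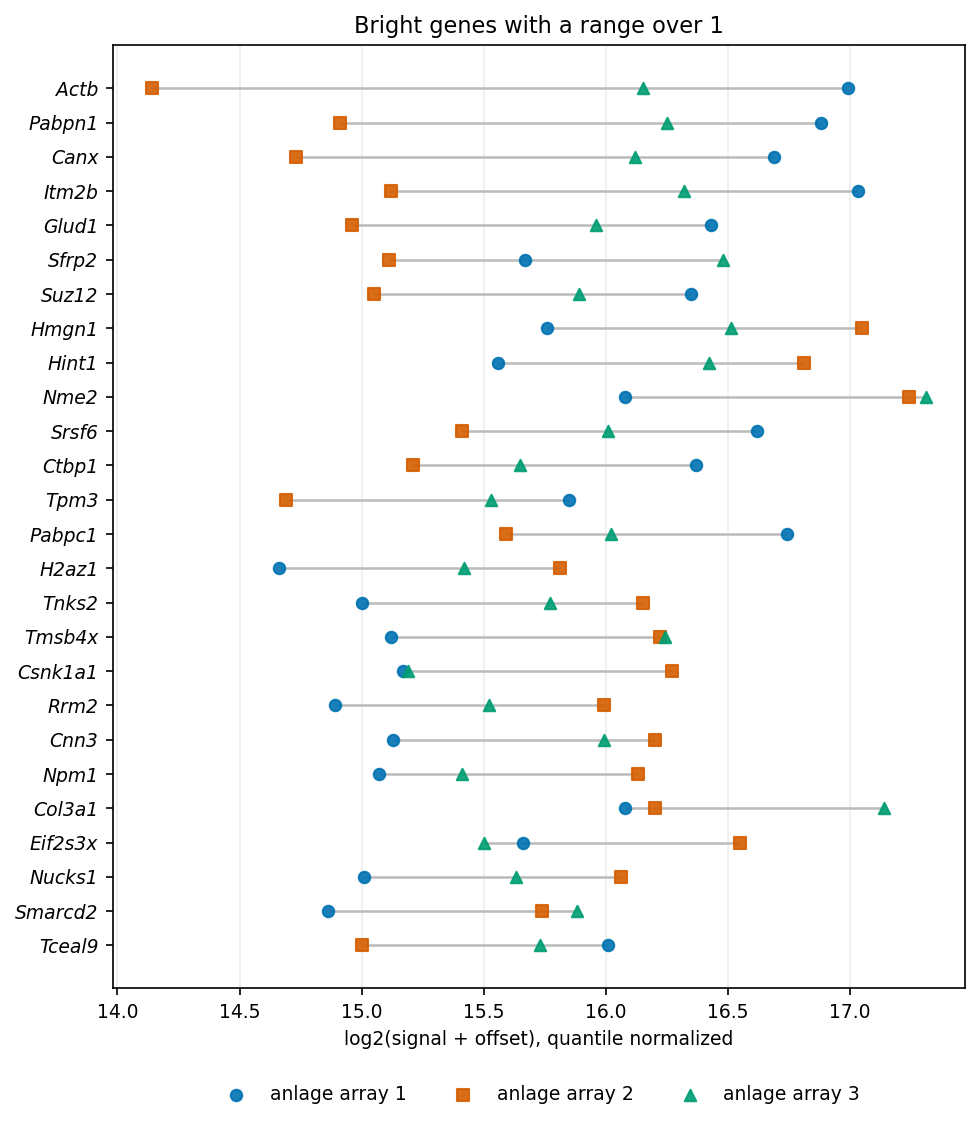
Log2 signal of the 26 bright genes with a range over 1, from the widest at the top, with 1 point per anlage array and a grey line over the range. Array 3 lies between the other two in 20 of the 26, beside 64.7% of all variable genes past the filter. Actb spans 14.14 to 16.99, and Col3a1 and Sfrp2 lie highest in array 3.

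Of the 5 variable bright genes that were highest in array 3, Nme2 and the thymosin Tmsb4x had array 2 just below array 3, at 17.24 against 17.31 and 16.22 against 16.24, and so had Smarcd2. In the other two array 3 stood alone. Col3a1, a collagen of connective tissue, read 16.08, 16.20 and 17.14, and Sfrp2, a secreted antagonist of Wnt signalling, 15.67, 15.11 and 16.48. Both stayed highest in array 3 under all 4 scalings. The second probe set of Col3a1 had the same order with a wider range, at 11.37, 12.81 and 14.93.

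Outside the bright set, some genes with high signal in array 1 were far lower in array 2. Malat1, a long nuclear RNA, held rank 284 and read 17.27, 11.55 and 16.24, a range of 5.73. All 7 probe sets of it were highest in array 1, and 6 of them had a range over 3. Neat1, the RNA of nuclear paraspeckles, read 15.23, 10.84 and 13.57, the cyclin Ccnd2 16.06, 12.27 and 14.70, and the endoplasmic reticulum chaperone Hsp90b1 16.23, 13.22 and 14.90. Array 2 was lowest for all 4 genes under each scaling run.

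Between pairs of arrays the genes past the filter fell out unevenly. Array 2 lay over 1 above array 1 in 24.5% (3120 genes) and array 1 above array 2 in 10.1% (1288), while among the bright genes each side had 11. Array 3 lay over 1 above array 1 in 16.4% (2097) and the reverse in 6.66% (850), with 4 and 0 bright genes. Array 2 lay over 1 above array 3 in 7.34% (937) and the reverse in 6.3% (804), with 2 and 6 bright genes. The median over these genes was 10.53, 10.89 and 10.85 in arrays 1, 2 and 3.

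Array 3 was the array with the fewest genes far from both others. Among the 6379 genes in the upper part of the past-filter genes by mean, 69 lay over 1 above both other arrays in array 3, and 22 lay over 1 below both. The 5 farthest above included 2 matrix and 2 smooth muscle genes. Lum, the matrix proteoglycan lumican, read 8.11, 10.06 and 14.68, and Dcn, decorin, 12.17, 10.50 and 14.82. Car3, a carbonic anhydrase of muscle and fat, read 8.55, 10.94 and 15.46. The smooth muscle genes Acta2, at 13.35, 13.41 and 16.16, and Myl9, at 9.63, 10.51 and 13.32, completed them. The 5 farthest below were the secreted proteins Ndnf and Reln, the SUMO protease Senp7 and the transcription factors Etv5, at 12.52, 12.59 and 10.43, and Gata3, at 11.94, 12.51 and 10.43. Etv5 and Gata3 are known in the branching ureteric epithelium.

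Array 2 was above both others by over 1 in 203 of the 6379 genes and below both in 301. Calb1, the calcium buffer of the connecting tubule and late distal nephron, read 11.48, 14.89 and 11.28, and was highest in array 2 in all 4 of its probe sets. Mycn, a transcription factor of proliferating progenitors, read 10.18, 12.66 and 9.86, and Eya1, of the nephron progenitors, 11.40, 13.72 and 11.37. In these 2 genes the dimmer probe sets past the filter were not highest in array 2, with 9.46, 8.53 and 9.41 in one of Mycn and 9.67, 7.43 and 8.98 in that of Eya1. Tent5c and the amino acid transporter Slc7a5 were the other two. The genes farthest below were the cardiac actin Actc1, at 14.04, 8.86 and 14.27, Malat1, the noncoding E130307A14Rik, the protease Plau, at 15.21, 9.10 and 12.82, and the channel kinase Trpm7. The other probe set of E130307A14Rik past the filter was highest in array 2, at 10.29, 11.17 and 10.67. For Trpm7, 2 of 3 further probe sets were also lowest in array 2, and the remaining one read 9.83, 11.43 and 10.81.

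Array 1 was above both others by over 1 in 313 of the 6379 genes and below both in 733. The chromatin remodeller Chd4 was the farthest above, at 14.58, 8.20 and 10.89, although another of its probe sets was flat at 10.86, 10.54 and 11.11. Sema5a, the repair nuclease subunit Ercc4, Rian and Srl followed. Farthest below were the neuronal RNA-binding protein Elavl2, at 8.49, 11.77 and 12.02, the carboxypeptidase Cpe, at 9.27, 12.47 and 12.63, and Golim4, Adamts5 and Tmtc2. The skeletal muscle genes Myh3, at 13.02, 7.02 and 6.90, and Acta1, at 13.07, 7.01 and 7.64, lay above the limit for dim genes in array 1 alone, and these 2 were picked after their values were seen. Of the 30 genes farthest apart in some array, 30 kept their side with the distribution taken from all 4 arrays of the series, and 29 with the deposited values and with a common median, Sema5a being the exception. Other probe sets held the order less often. Among 38 further probe sets past the filter, from 19 of the 30 genes, 22 had the same highest array as the brightest one and 24 the same lowest. The second probe set of Tmtc2 read 12.07, 11.55 and 10.30, and 0 of 3 further ones of Ercc4 had the same highest array.

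Markers of other cell types of the fetal kidney were read in the same way, and are compared between arrays rather than between lists. The 8 stromal markers had mean log2 values of 12.59, 12.66 and 14.24 and a summed signal of 118000, 119000 and 269000, with the sum for the 6 anlage markers at 127000, 26800 and 100000. The 6 highest-in-array-3 members included Col3a1, Pdgfra, Col1a1, Dcn and Lum, while Foxd1, at 13.97, 12.85 and 13.40, and Meis1 were highest in array 1. The 6 muscle markers had means of 9.99, 9.56 and 12.32 and sums of 28200, 12900 and 106000. Of them 5 of 6 were highest in array 3, as were 6 of the 8 stromal markers, beside 27.1% of all genes past the filter. Myh11, the smooth muscle myosin, read 8.21, 9.08 and 13.15. Their part in the array 3 values above was not tested.

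Most podocyte and nephron progenitor markers were highest in array 2, as were 46.3% of all genes past the filter. All 4 measured podocyte markers had their highest value there, with list means of 9.88, 11.46 and 10.11 and sums of 5140, 21100 and 6200, led by Podxl at 11.15, 13.60 and 11.94 and Wt1 at 11.33, 12.80 and 10.08. The defining slit diaphragm gene Nphs1 was near the limit for dim genes, at 8.49, 8.83 and 8.01. Of the 6 nephron progenitor markers 5 were highest in array 2, with means of 10.20, 10.92 and 9.37 and sums of 9290, 24100 and 5450, and Six2 read 10.84, 11.08 and 9.77. The 5 distal convoluted and connecting tubule markers had means of 9.59, 10.72 and 9.72, carried by Calb1, while the defining cotransporter Slc12a3 was dim at 7.27, 7.37 and 7.03. The podocyte and progenitor lists were highest in array 2 under each of the 4 scalings. With a common median, the genes past the filter in general were highest there too, at medians of 10.13, 11.42 and 10.78. Against these medians the podocyte list lay at -0.57, 0.54 and -0.75 and the progenitor list at -0.28, -0.09 and -1.51. The part of these cells in the lower anlage markers of array 2 was not tested.

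The remaining lists had means of at most 10.40 in any array, and some of them differed between arrays. The 9 collecting duct markers had means of 9.28, 9.96 and 9.17 and sums of 8270, 13400 and 5950. Gata3 was the brightest, and the water channel Aqp2 read 9.44, 9.72 and 9.41. Of the 9, 6 were highest in array 2, beside 46.3% of all genes past the filter, and the list mean was highest there under each of the 4 scalings. With a common median, however, the list lay at -1.10, -1.22 and -1.71 against the medians of the genes past the filter, highest in array 1. The 9 proximal tubule markers had means of 9.60, 9.89 and 9.85, led by the transcription factor Hnf4a at 11.04, 11.94 and 11.21. The 8 endothelial markers had means of 9.28, 9.98 and 10.05 and sums of 4710, 11500 and 12700. Cd34 was the widest-ranging at 9.32, 11.82 and 12.28, and Pecam1 was dim. A range over 1 was found for 5 of the 9 collecting duct and 5 of the 8 endothelial markers, beside 42.9% of all genes past the filter. The 4 erythroid markers had means of 8.93, 9.29 and 8.64, the 8 macrophage and leukocyte markers 9.13, 9.48 and 9.06, and the 2 neural markers 7.86, 7.92 and 8.14. Outside the erythroid list, the haemoglobin gene Hbb-y was brighter, at 11.92, 13.47 and 12.10. The other haemoglobins past the filter, Hbb-b2 and Hba-a2, had means of 10.27 and 8.48. Of the 4 hepatic-type secreted genes, with means of 10.40, 9.57 and 9.67, Afp, the fetal serum protein, read 15.55, 12.64 and 14.74, whereas albumin (Alb) read 9.63, 9.31 and 8.04. Afp thus stood at the level of the anlage markers and in their order over the arrays, while the other 3 genes of its list were dim or nearly so.

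**Figure D5:**
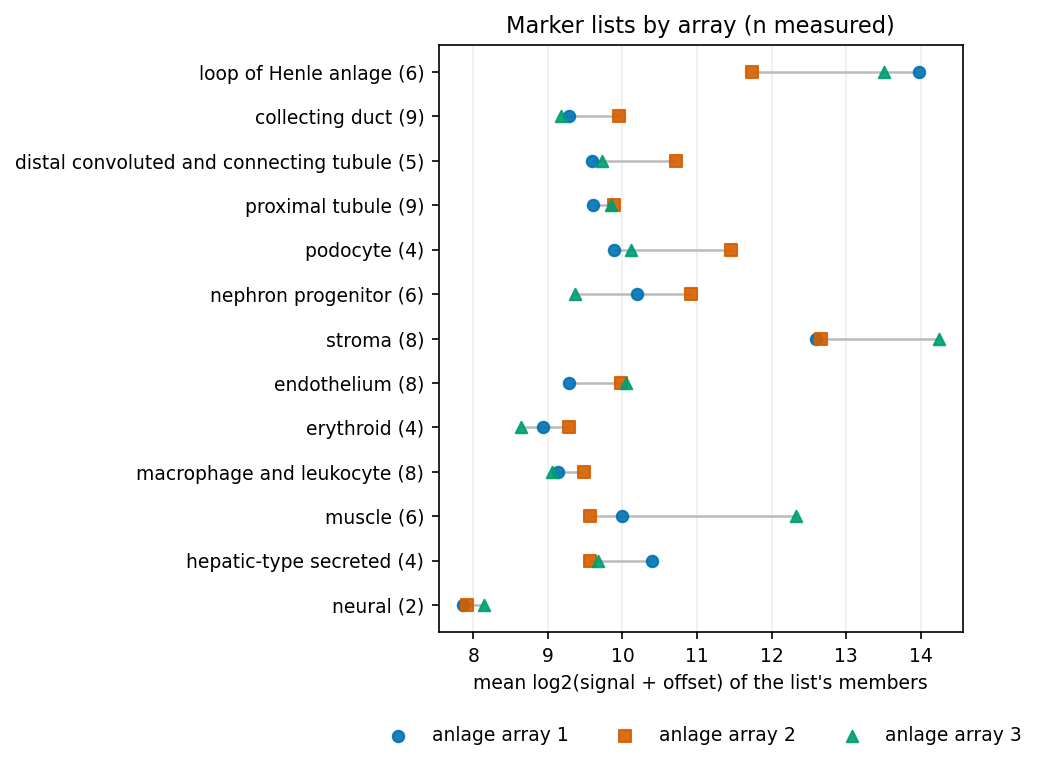
Mean log2 signal of each marker list in the 3 anlage arrays, with the number of members measured in brackets and a grey line over the range. The anlage list is lowest in array 2 (11.73 against 13.97 and 13.51), and the stromal and muscle lists are highest in array 3 (14.24 and 12.32).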

How the data were processed

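The deposited values were linear probe set intensity values of expression arrays, made by the authors with the software GCOS, as the submitters' processing notes name it. No version, algorithm or genome build is named in the sources read here. The mean of each deposited column after trimming 2% at each end was 1500 in the 3 arrays. RNA had been amplified over 2 rounds and labelled with biotin, per the labels' protocols. Amplification from the 3' end lowers probe sets far from it.

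The 3 columns were quantile normalized together, log2(signal + 109.11) was taken (the 25th percentile), and 64 control probe sets were left out of 45101. Of the rest, 34945 had 1 symbol in the platform table, 932 several and 9160 no entry there, and only the first were used. By Entrez number 34741 matched the RefSeq gene table, and 0 symbols changed. A gene was read from its brightest probe set. Genes with a mean under 8.40 were left out as dim. No column was left unmapped.

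Genes were put in 20 functional classes by symbol, the first match counting, and 13 lists of cell type markers were used. Named were the 20 brightest genes, the 10 steadiest and 10 widest bright ones, the brightest and widest of each class with 3 or more bright genes, the 5 farthest above and below in each array among the 6379 genes over the median mean, the anlage markers and the 2 brightest members of each other list. Other genes, including further members of the classes and lists, were picked with their values in view. The members, classes and lists were chosen with earlier results of these data known. No test across genes was made, since each pool had 1 array. Nothing states that the pools were separate animals, so the spread may be partly technical. Alternatives were 3 other scalings, 2 other offsets, the mean of a gene's probe sets, no filter, other set sizes and thresholds, each array left out and, chosen after seeing the data, only probe sets ending in _at or _a_at. The number of arrays limits the precision. Python 3.11.15, numpy 2.4.6 and pandas 2.3.3 were used.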

Additional observations from a re-analysis of the deposited data

How the results depend on the processing

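Membership of the 200 bright genes held for 176 to 200 of them under the other scalings, offsets and filter and with any array left out, and for 85 with the mean of all probe sets, 128 with only probe sets ending in _at or _a_at and 100 when 100 genes were taken. The number of bright genes with a range over 1, 26 in the report, was 163 with a common median, 41 with the mean of all probe sets, 45 with only _at or _a_at probe sets, 17 among 100 and 107 among 500 genes, 76 at a threshold of 0.5 and 1 at 2. It was 5 to 21 with an array left out, which leaves 2 values a gene. Over all genes past the filter the number, 5477 in the report, was 8711 with a common median, 9775 at 0.5 and 1305 at 2, and 2150 to 4313 with an array left out. The ribosomal share of the bright genes, 14%, was 22% among 100 and 6.2% among 500. Genes over 1 apart between arrays 1 and 2, 4408 in all, became 7928 with a common median, 7922 at 0.5 and 1044 at 2. Between arrays 1 and 3, 2947 became 1809 with the mean of probe sets, 6741 at 0.5 and 475 at 2. Between arrays 2 and 3, 1741 became 4390 with a common median, 1135 with an offset at the 50th percentile, 1096 with the mean of probe sets, 2758 without the filter, 5197 at 0.5 and 250 at 2. Array 3 lay in the middle for 111 bright genes (55.5%, against 51.8% of all genes past the filter), for 187 with a common median, and for 55 of 100 and 295 of 500. The cause of these shifts was not tested, apart from those that follow from the number of genes, arrays or the threshold itself. Of 107 named genes the range moved by more than the SD over arrays in 56 with a common median and 27 with the deposited values, and the mean in 0 with either. With a mean over probe sets, 58 of 106 means and 36 ranges moved, and with only _at or _a_at probe sets 24 of 101 means and 16 ranges. No paired analysis was possible because there is 1 group.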

Other observations

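Among the 200 brightest probe sets of the 3 arrays, 120 carried 1 gene symbol, 61 carried several and 19 had no entry in the platform table. The bright genes of the report are therefore those that a probe set with a symbol of its own can show.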
